A study of Sus scrofa with 8 samples.

Results

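Skatole is an indole compound that gut bacteria make from tryptophan and that the liver of the pig oxidizes before excretion. What escapes this clearance is deposited in fat and contributes to boar taint. The cytochromes P450 CYP2E1 and CYP2A19 carry much of that oxidation, and CYP1A1 and CYP1A2 are the P450s that aromatic ligands induce through the aryl hydrocarbon receptor AHR. The 4 genes CYP2E1, CYP2A19, CYP1A1 and CYP1A2 were looked up among 24123 probe sets of the Affymetrix porcine array by exact gene symbol, where the probe set carries that symbol alone. Of these 4 genes, 3 have a probe set that meets this rule, 1 each: CYP2E1 (gene ID 403216, chromosome 14), CYP2A19 (gene ID 403149, chromosome 6) and CYP1A1 (gene ID 403103, chromosome 7). The IDs and chromosomes are those of the Sscrofa11.1 gene table, and the 3 genes are among 6765 that have a probe set with a single symbol. CYP1A2 has no probe set under that symbol in the array annotation used and was not analysed here. In the same gene table CYP1A2 is the direct neighbour of CYP1A1, with 0 genes listed between them.

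The study measured liver RNA of Korean native pigs (KNP, 4 animals, 7 months old) and of Yorkshire pigs (YS, 4 animals, 6 months old), with 1 array per animal. The tissue was the tip of the largest lobe, and according to the labels the animals shared their rearing conditions. Neither sex nor castration status is stated in the labels used. Breed differed together with age, so the effects of breed and age cannot be told apart, and each value is a level in whole liver, where fewer cells of a type and less RNA per cell cannot be told apart either.

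P450 enzymes sit in the endoplasmic reticulum of hepatocytes, carry a haem group and take electrons from the reductase POR and from cytochrome b5. CYP2E1 and CYP1A2 are known in rodent and human liver for their high level in hepatocytes around the central vein. The AHR, with its partner ARNT, switches on CYP1A1 when it binds planar aromatic ligands.

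The probe set intensities are on a linear scale and scaled per array, with a trimmed mean of 499.8 on every array. The number of arrays limits the precision. Array medians ran from 152 to 169 in KNP and from 153 to 179 in YS, while the highest intensity ran from 50730 to 60066 in KNP and from 83646 to 95919 in YS (exact permutation p = 0.0286, two-sided, the smallest that 4 against 4 arrays allow, n = 4 per breed). The spiked hybridization controls ran from 2747 to 4230 in KNP and from 5167 to 7651 in YS, and the 3' signal of the actin controls was 2.68 to 6.45 times the 5' signal in KNP and 8.39 to 11.8 times in YS. Neither overlapped between the breeds, so the state of the arrays and breed cannot be told apart. The hepatocyte marker list was bright on all arrays: the summed intensity of its 11 markers on the array, of 14 listed, ran from 346743 to 393167 in KNP and from 522500 to 555717 in YS, and none was at 0. Of these 11 markers 7 fell and 1 rose at a limma adjusted p under 0.05, against 0.611% lower and 0.424% higher of all probe sets tested. Their median difference was -0.54, which was 0.017 after quantile normalization. The bile duct list summed to 2633 to 4105 in KNP and 2327 to 2579 in YS over 7 of 10 markers, and the Kupffer cell and macrophage list to 17090 to 22847 in KNP and 9586 to 20427 in YS over 8 of 12. None of their genes was called in limma, but the mean was higher in KNP in 4 of 4 tested bile duct genes (median 0.40, and 0.36 after quantile normalization) and in 7 of 7 tested Kupffer cell genes (median 0.49, and 0.45 after quantile normalization), with 1 of each at an unadjusted p under 0.05. The lymphocyte list was higher in KNP in 4 of 4 genes too (median 0.37, and 0.45 after quantile normalization), with sums that overlapped. Sums of the sinusoid, stellate and red blood cell lists overlapped between the breeds, also with none called. The part of other cell types in the results was not tested.

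KNP replicate 2 stood apart from the other arrays. It lay over 4-fold below all 7 others in 28 probe sets and over 4-fold above all 7 others in 15, out of 14399 tested. The other arrays had 1 to 21 such probe sets below and 0 to 3 above, with KNP replicate 3 next at 21 and 3. At a 2-fold limit KNP replicate 2 had 118 below and 105 above. KNP replicate 3 had 121 and 29 there, and YS replicate 2 had 92 and 10, so replicate 2 of KNP stood out above but not below. The mean correlation of KNP replicate 2 with the other arrays was 0.914 across probe sets, against 0.924 to 0.938 for the rest. Results that rest on this animal are therefore given with and without it.

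**Figure D1:**
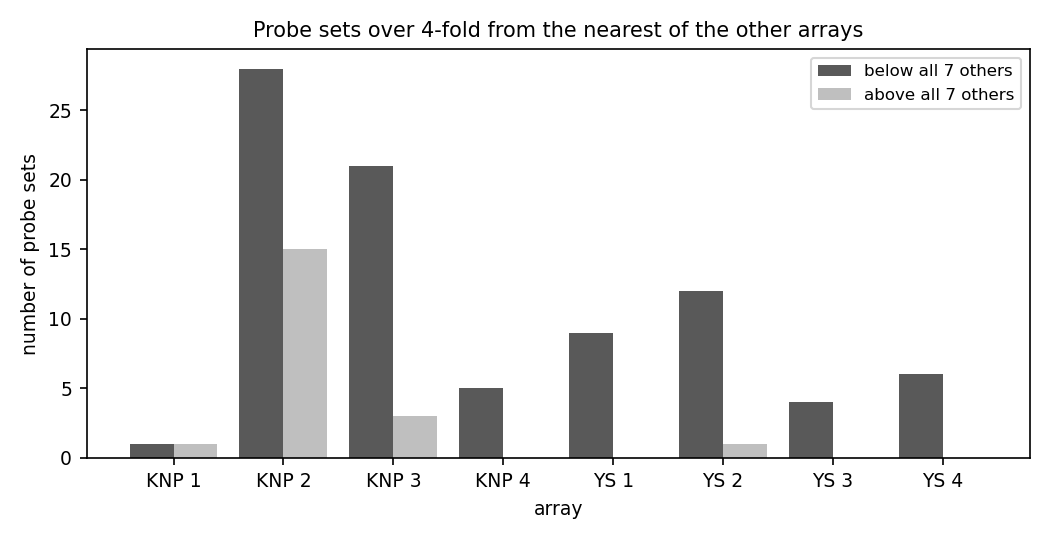
Number of probe sets (vertical axis) in which each array (horizontal axis) lay more than 4-fold below (dark bars) or above (light bars) the nearest of the other 7 arrays, on log2(intensity + 16). KNP replicate 2 has 28 below and 15 above, and KNP replicate 3 has 21 and 3.

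Of the 3 cytochromes measured, 0 passed the limma test of KNP against YS, in which 149 of 14399 probe sets (1.03%) were called at an adjusted p under 0.05, 0.424% higher and 0.611% lower. All 3 had a lower mean in KNP, and 2 of them, CYP2A19 and CYP1A1, had an unadjusted p under 0.05, as did 8.06% of all probe sets in that direction. For CYP2E1 and CYP2A19 every KNP animal lay below every YS animal, a pattern that 5.67% of all probe sets tested showed in that direction. That share is over probe sets of any brightness, and bright probe sets in general were lower in KNP. Their median difference was -0.39 at a mean log2 intensity of 14 to 15 and -0.58 at 15 to 17. How often probe sets that bright show this pattern was not counted. The KNP animals differed widely from each other in all 3 genes, and the lowest animal was not the same in each.

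CYP2E1 oxidizes ethanol and other small molecules besides skatole. Its intensity was 32831, 555, 39858 and 39561 in KNP replicates 1 to 4, against 48769, 45851, 53697 and 50996 in YS replicates 1 to 4. The 4 YS animals lay within 1.17-fold of each other, 3 KNP animals lay a little below them, and KNP replicate 2 was at 1.48% of the mean of the other three KNP animals (37417 ± 3974, SD, n = 3). The breed means were 28201 ± 18714 in KNP and 49828 ± 3330 in YS (SD, n = 4 per breed). The difference, KNP minus YS on the log2(intensity + 16) scale, was -1.92 (SE 1.11, 95% interval -4.37 to 0.53, limma adjusted p = 0.452).

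Most of the CYP2E1 difference rested on KNP replicate 2. Without that animal it was -0.42 (SE 0.12, 95% interval -0.68 to -0.15, limma unadjusted p = 0.00566, adjusted p = 0.140). Among the 75 probe sets whose mean log2 intensity over the 7 remaining arrays was 15 to 17, as for CYP2E1, the median difference without this animal was -0.56, and 59 of the 75 lay lower than CYP2E1. After quantile normalization, which gives all arrays the same distribution, CYP2E1 showed -1.50 with all animals and 0.071 without KNP replicate 2 (95% interval -0.14 to 0.28, limma adjusted p = 0.785). On that scale the median of the 75 was -0.02.

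The rank of the probe set within each array does not depend on the scaling. Among 23999 probe sets, counted from the brightest, CYP2E1 ranked 44, 5691, 31 and 40 in KNP replicates 1 to 4, and 44, 55, 37 and 42 in YS replicates 1 to 4. Outside KNP replicate 2 the ranks of the breeds overlapped. In KNP replicate 2 the gap of CYP2E1 to the lowest of the other arrays was 57.5-fold as a ratio of intensity + 16, the second largest gap below the other arrays among the 14399 probe sets.

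CYP2A19 is the pig member of the CYP2A subfamily, which also hydroxylates coumarin. Its intensity was 14913, 162, 3421 and 24450.2 in KNP replicates 1 to 4, against 40327, 43879, 37093 and 36838 in YS replicates 1 to 4. The YS animals again lay close together, within 1.19-fold, and the KNP animals were spread over 151-fold, with all 4 below the lowest YS animal. KNP replicate 2 was at 0.41% of the YS mean, KNP replicate 3 at 8.65%, KNP replicate 1 at 37.7% and KNP replicate 4 at 61.8%.

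Breed means of CYP2A19 were 10737 ± 11118 in KNP and 39534 ± 3303 in YS (SD, n = 4 per breed). The log2 difference was -3.35 (SE 1.18, 95% interval -5.95 to -0.76, limma unadjusted p = 0.0160, adjusted p = 0.216). Without KNP replicate 2 it was -1.87 (SE 0.50, 95% interval -2.96 to -0.78, adjusted p = 0.110). Quantile normalization gave -3.07 with all animals and -1.59 without KNP replicate 2 (adjusted p = 0.291 and 0.217 in limma). The difference was thus over 1 on the log2 scale in each of these fits and called in none.

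The ranks of CYP2A19 within the arrays were 244, 11738, 1080 and 121 in KNP replicates 1 to 4, and 72, 58, 79 and 87 in YS replicates 1 to 4. These did not overlap between the breeds. Among 203 probe sets as bright as CYP2A19 (13 to 14 on the log2 scale, averaged over the arrays), the median difference was -0.22 and 1 lay lower than CYP2A19. That average includes the low KNP values of CYP2A19, and without KNP replicate 2 it was 14.5. A bin at 14 to 15, averaged over all 8 arrays, held 167 probe sets. Their median difference without that animal was -0.40 and 0 lay lower than CYP2A19. That bin was not remade without KNP replicate 2, so the match in brightness is only approximate.

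CYP1A1 hydroxylates polycyclic aromatic hydrocarbons and is low in uninduced liver of many mammals. Its intensity was 2069, 139, 71.8 and 313 in KNP replicates 1 to 4, against 2208, 7585, 1311 and 1671 in YS replicates 1 to 4. KNP replicate 1 fell within the YS range, the other three KNP animals lay below it, and YS replicate 2 was the highest. KNP replicates 2 and 3 were below the medians of their arrays, 155 and 152, at dim signal.

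Breed means of CYP1A1 were 648 ± 952 in KNP and 3194 ± 2951 in YS (SD, n = 4 per breed). The log2 difference was -3.00 (SE 0.85, 95% interval -4.86 to -1.13, limma unadjusted p = 0.00470, adjusted p = 0.128). Without KNP replicate 1 it was -3.91 and passed the threshold (SE 0.59, limma adjusted p = 0.0252). Leaving out any of the other 7 animals gave -3.30 to -2.39 with no call. CYP1A1 was hardly touched by scaling, at -2.98 after quantile normalization, and its ranks were 1754, 12580, 15989 and 8689 in KNP replicates 1 to 4, and 1614, 500, 2591 and 2087 in YS replicates 1 to 4.

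**Figure D2:**
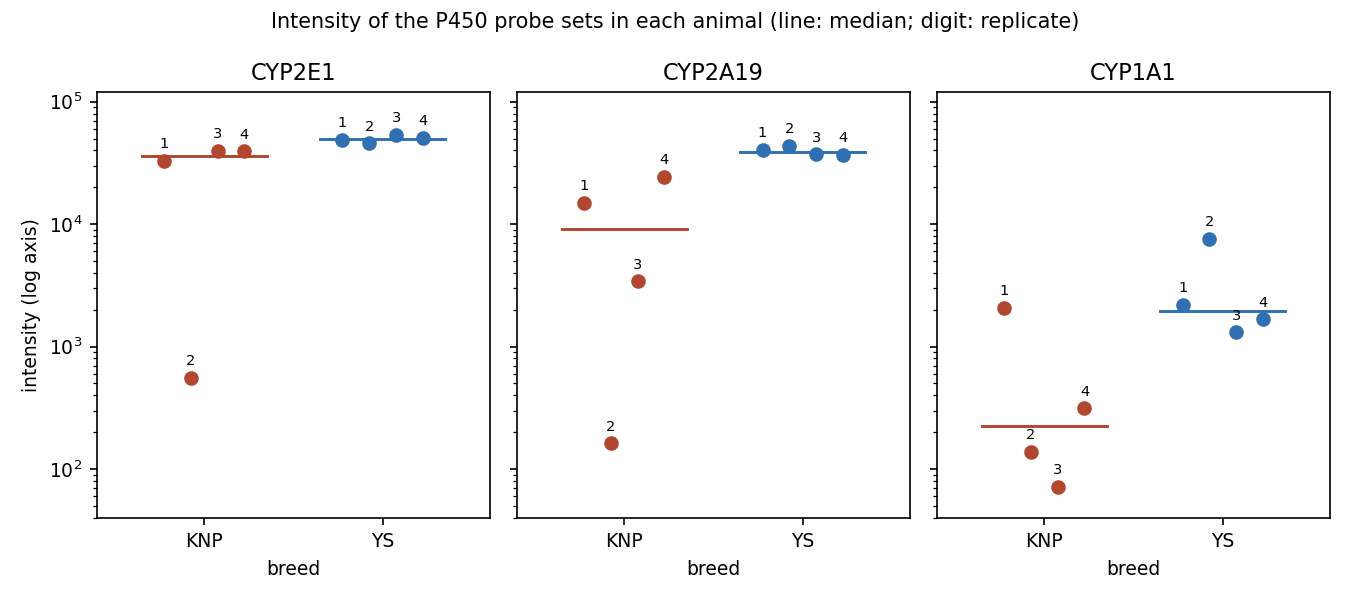
Intensity (log axis) of CYP2E1, CYP2A19 and CYP1A1 in each of 4 KNP and 4 YS animals; digits give the replicate and lines the breed median. KNP replicate 2 is at 555 in CYP2E1 and at 162 in CYP2A19, and KNP replicate 1 lies within the YS range in CYP1A1.

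**Figure D3:**
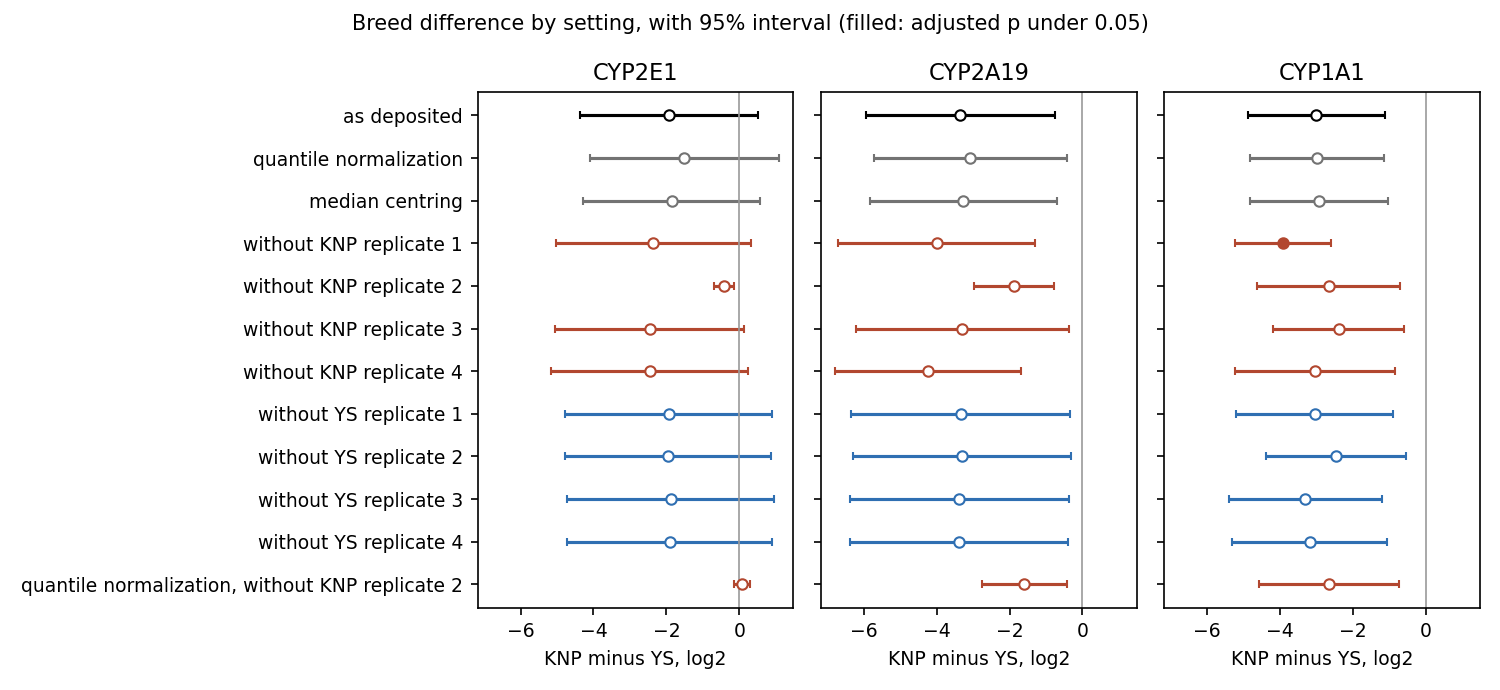
KNP minus YS difference on the log2 scale (horizontal axis) of each cytochrome as deposited, under other normalizations and with each animal left out; bars are 95% intervals and filled points have an adjusted p under 0.05. CYP2E1 moves from -1.92 to -0.42 without KNP replicate 2, and CYP1A1 without KNP replicate 1 is the only filled point.

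The spread between animals was wide within KNP. The SD of the log2 values over the 4 KNP animals was 3.02 for CYP2E1, 3.19 for CYP2A19 and 1.99 for CYP1A1, which ranked 8, 5 and 33 among 14399 probe sets. Over the 4 YS animals the SD was 0.097 for CYP2E1 and 0.12 for CYP2A19, smaller than in 92.9% and 88.7% of probe sets. These shares are over probe sets of any brightness, and spread was not compared at the brightness of these genes. CYP1A1 varied in YS as well, with an SD of 1.12, and 1.15% of probe sets varied more. The difference in spread between the breeds was not tested.

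The 3 genes did not share a single order of animals. KNP replicate 2 was the lowest animal of 8 in CYP2E1 and CYP2A19, and KNP replicate 3 the lowest in CYP1A1. KNP replicate 3, the second lowest in CYP2A19, was level with KNP replicate 4 at the top of the KNP animals in CYP2E1 (39858 and 39561). KNP replicate 1, the highest KNP animal in CYP1A1, was second to KNP replicate 2 from the bottom in CYP2E1.

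Among 21 P450 genes that passed the filter on dim probe sets, out of 28 on the array with 1 symbol, 18 are other than these 3. Of the 18, CYP3A39, a drug-oxidizing P450, fell by 1.09 (limma adjusted p = 0.0440), 0 rose and 17 did not pass, where the background is 0.611% lower. At an unadjusted p under 0.05 in limma, 6 were lower and 0 higher, where 8.06% of all probe sets tested were lower. The median difference of the 18 was -0.42, against -0.01 over all probe sets tested, and 14 of 18 had a lower mean in KNP. Bright probe sets in general were lower in KNP. Their median was -0.39 at a mean log2 intensity of 14 to 15 and -0.58 at 15 to 17 (-0.04 and -0.03 after quantile normalization). Several of the 18, such as CYP3A39 and CYP2C33, are that bright, and brightness was not matched here. CYP3A39 was at 35087, 18424, 42854 and 35627 in KNP replicates 1 to 4, against 66405, 70014, 66582 and 65831 in YS replicates 1 to 4. The lowest value was again that of KNP replicate 2. A second CYP3A39 probe set showed -0.78 with no call (adjusted p = 0.0694). After quantile normalization CYP3A39 showed -0.56 with no call (adjusted p = 0.310).

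The 3 other P450s on the list of the skatole route, CYP2C33, CYP3A29 and CYP2C49, lay within or close to the range of the other KNP animals in KNP replicate 2, while some further P450s did not. CYP2C33 had 29904, 40407, 40863 and 33495 in KNP replicates 1 to 4, and 45071 to 57462 in YS (log2 difference -0.55, SE 0.14, limma adjusted p = 0.0926). CYP3A29 had 23848 to 30386 in KNP, with 27498 in replicate 2, and 21249 to 24380 in YS. CYP2C49 had 19419 in KNP replicate 2 and 20006 to 29127 in the other KNP animals, and 23514 to 43182 in YS. CYP3A46 was highest in KNP replicate 2 at 45859, with 11402 to 26543 in the other KNP animals and 27737 to 35584 in YS.

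CYP2C36 went the other way in KNP replicate 2, with an intensity of 24858. The other KNP animals had 53.4 to 94.5, and the YS animals 36.1 to 149. Its difference between the breeds was 1.84 with that animal and -0.23 without it (adjusted p = 0.614 and 0.861 in limma). The P450s with the next widest KNP ranges were CYP7A1, the rate-limiting enzyme of bile acid synthesis, CYP2C42 and CYP51, a sterol demethylase. CYP7A1 had 2930, 2987, 82.5 and 2752 in KNP replicates 1 to 4, against 3858 to 6485 in YS (log2 difference -1.88, limma adjusted p = 0.361, and -0.66 with 0.157 without KNP replicate 3). CYP51 had 2821 in KNP replicate 3 and 12092 to 13693 in the other KNP animals, against 14743 to 20845 in YS (log2 difference -1.01, and -0.47 without KNP replicate 3, neither called). CYP2C42 was highest in KNP replicate 2 at 3036, with 372 to 722 in the other KNP animals and 691 to 1736 in YS. Low CYP7A1 and CYP51 thus marked replicate 3, the animal lowest in CYP1A1, and not replicate 2.

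**Figure D4:**
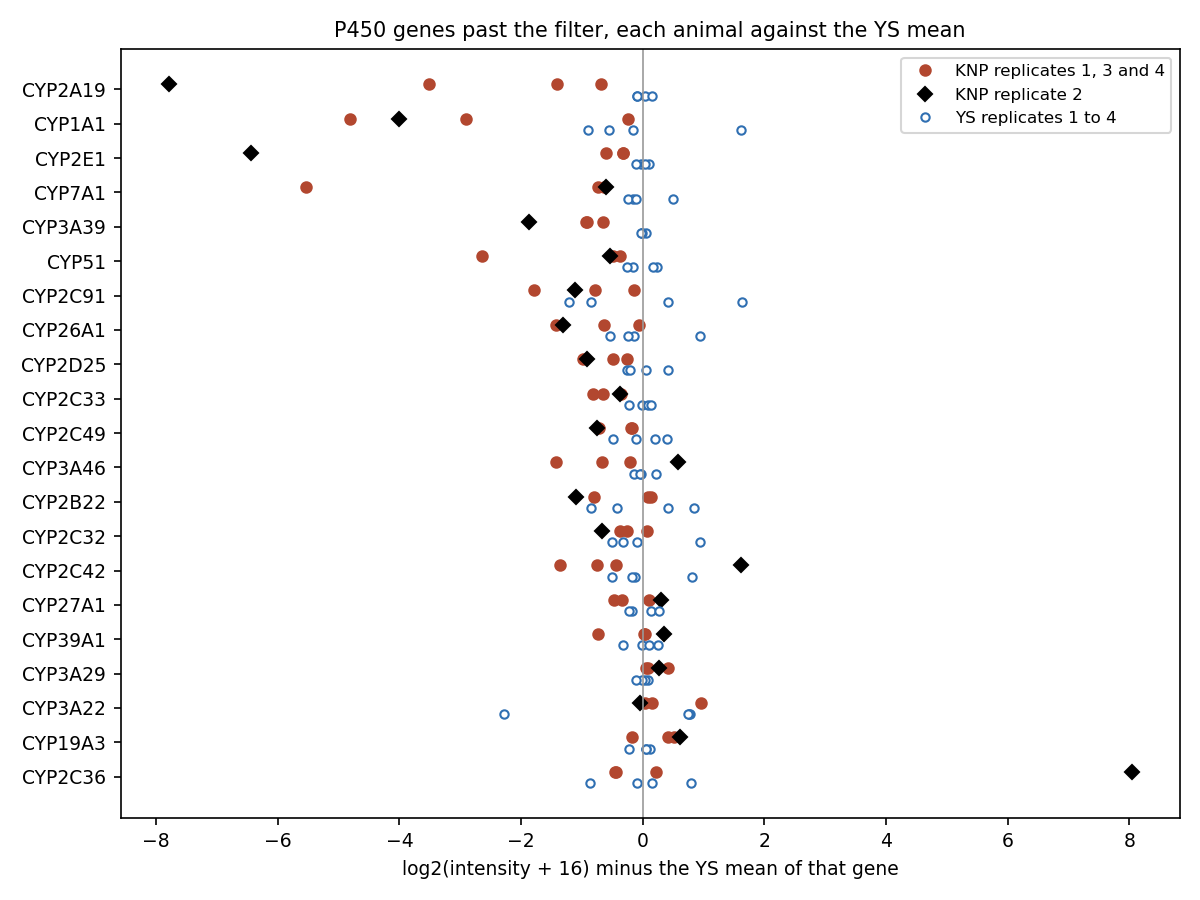
Each of 21 P450 genes (rows) as log2(intensity + 16) minus the YS mean of that gene (horizontal axis), per animal; filled circles are KNP replicates 1, 3 and 4, diamonds KNP replicate 2 and open circles YS animals. KNP replicate 2 is far to the left in CYP2A19 and CYP2E1 and far to the right in CYP2C36.

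The remaining genes of the skatole route act beside or after the P450s. Of 16 genes listed for this route 9 were on the array and tested, CYP2E1 and CYP2A19 included. Of the 9, 1 fell, 0 rose and 8 did not pass, and 5 were lower at an unadjusted p under 0.05. Over all probe sets tested in limma, 0.611% were called lower and 0.424% higher. At an unadjusted p under 0.05, 8.06% were lower. These shares are the background for the lists below as well. They are over probe sets of any brightness. Bright probe sets in general were lower in KNP, and brightness was not matched for this list or those below. The median of the 9 was -0.62, and -0.26 after quantile normalization. UGT2B31, a glucuronosyltransferase, fell by 0.90 (SE 0.15, limma adjusted p = 0.0336; 13570 ± 1702 in KNP and 25448 ± 4458 in YS, SD, n = 4 per breed), and showed -0.59 with no call after quantile normalization (adjusted p = 0.145). A dimmer probe set of this gene showed -0.60 with no call. AOX1 and SULT1A1 have no probe set with that single symbol in the annotation used.

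SULT1A3, a sulfotransferase on the list of the skatole route, is named here because of its values. It had 9978, 177, 8791 and 7684 in KNP replicates 1 to 4, against 8228, 6143, 5237 and 4104 in YS replicates 1 to 4. The lowest of the 8 animals was KNP replicate 2 here too, while the other three KNP animals lay at or above most YS animals. The log2 difference was -0.77 with KNP replicate 2 and 0.61 without it (adjusted p = 0.771 and 0.214 in limma). CBR1 and CBR2, carbonyl reductases chosen for their values too, went the opposite way in that animal alone. CBR2 was at 21871 in KNP replicate 2, and at 41.9 to 77.6 in the other KNP animals and 44.1 to 90.1 in YS. CBR1 was at 24267 in KNP replicate 2, and at 101 to 158 in the other KNP animals and 107 to 1045 in YS.

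Electron donors of the P450s had a lower mean in KNP in 5 of 7 genes tested, of 11 listed. Of the 7, 0 were called in limma, with 2 lower and 0 higher at an unadjusted p under 0.05; the median was -0.28, and -0.20 after quantile normalization. CYB5A, cytochrome b5, was at 20855, 15879, 26213 and 20934 in KNP replicates 1 to 4. In YS replicates 1 to 4 it was at 29475, 34488, 32639.7 and 30946, without overlap. The log2 difference was -0.62 (SE 0.15, limma adjusted p = 0.0847), and -0.26 after quantile normalization (limma adjusted p = 0.482). The limma adjusted p was 0.0464 without KNP replicate 3, and 0.102 to 0.195 with any other single animal left out. PGRMC1, a haem-binding partner of P450s, showed -0.51 (adjusted p = 0.0678). POR, the reductase that all microsomal P450s depend on, had 2594, 2292, 3840.2 and 3373 in KNP replicates 1 to 4, and 1917 to 3318 in YS (log2 difference 0.31, SE 0.22, adjusted p = 0.552).

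Haem genes showed no call either in limma, with 8 of 12 listed genes tested, 2 higher and 0 lower at an unadjusted p under 0.05, and a median of 0.15. ALAS1, which sets the rate of haem synthesis in liver, varied within both breeds, from 5060 to 12297 in KNP and from 2387 to 21132 in YS (log2 difference -0.11, SE 0.53, limma adjusted p = 0.945). Among the KNP animals, replicate 2 was the lowest in ALAS1, and YS replicate 4 was the lowest of all. Dimmer ALAS1 probe sets showed -0.27 and 0.52, so its sign depends on the probe set. HMOX2 and BLVRA, which break down haem and biliverdin, showed 0.61 and 0.63 (adjusted p = 0.106 and 0.257), and HMOX1 showed 0.13 (adjusted p = 0.833).

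The aryl hydrocarbon receptor and its partner bear on CYP1A1. AHR had 477, 225, 340.2 and 201 in KNP replicates 1 to 4, against 431, 336, 423 and 473 in YS replicates 1 to 4 with its brightest probe set (log2 difference -0.47, SE 0.26, limma adjusted p = 0.423). A dimmer AHR probe set showed 0.64, so the probe sets disagree in sign. Both ARNT probe sets were below the filter; the brighter ran from 4.03 to 102 in KNP and from 128 to 194 in YS. Of 11 genes of the receptor machinery 6 were tested and 0 were called in limma, 0 also at an unadjusted p under 0.05, with a median of -0.18; PTGES3, a co-chaperone of the receptor complex, showed -0.39 (adjusted p = 0.333).

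Few AHR targets could be measured, since 3 of 12 listed genes were on the array: CYP1A1 itself, GSTA1 and NQO1. CYP1B1, AHRR and TIPARP have no probe set with that single symbol in the annotation used. GSTA1, a glutathione transferase, fell by 0.96 (SE 0.13, limma adjusted p = 0.0190; 32427 ± 5154 in KNP and 62801 ± 4592 in YS, SD, n = 4 per breed), and showed -0.38 with no call after quantile normalization. A dimmer GSTA1 probe set fell by 1.43 (adjusted p = 0.0314). NQO1, a quinone reductase, had 2553, 432, 934 and 1709 in KNP replicates 1 to 4, against 1694, 1292, 1051 and 1574 in YS replicates 1 to 4 (log2 difference -0.25, SE 0.44, adjusted p = 0.829, and 0.21 with 0.794 without KNP replicate 2). In NQO1 as in CYP1A1 KNP replicate 1 was the highest KNP animal and replicates 2 and 3 the lowest, but all YS animals lay within the KNP range.

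Regulators of P450 genes showed 0 calls in limma among 12 tested of 20 listed, with 2 higher and 1 lower at an unadjusted p under 0.05 and a median of 0.10. HNF4A, a hepatocyte transcription factor, had 7972, 7888, 8091 and 4599 in KNP replicates 1 to 4, against 8988 to 10669 in YS (log2 difference -0.48, SE 0.19, limma adjusted p = 0.253, and -0.28 with 0.290 without KNP replicate 4). Its second probe set showed -0.08. NR1I2, the pregnane X receptor, showed 0.03 (adjusted p = 0.968) and NR3C1, the glucocorticoid receptor, 0.54 (adjusted p = 0.249). NR1I3 has no probe set with that single symbol in the annotation used. In KNP replicate 2 HNF4A and NR1I2, at 7888 and 495, lay within the range of the other animals.

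Genes known from rodent liver for a zone of the lobule were read as 2 lists. Of 20 listed genes of the central vein zone 11 were tested, CYP2E1 included. ALDH1A1, which oxidizes retinaldehyde, fell by 0.88 (limma adjusted p = 0.00940, and -0.30 with no call after quantile normalization). In this list 0 rose and 10 did not pass, with a median of -0.30 in the deposited values and after quantile normalization. The mean was higher in KNP in 3 of the 11 and lower in 8, with a highest difference of 1.50. At an unadjusted p under 0.05 in limma, 1 was higher and 2 were lower. GLUL, glutamine synthetase, a defining gene of that zone, had 3024, 3563, 2593 and 3173 in KNP replicates 1 to 4, against 3926, 4302, 5126 and 5533 in YS replicates 1 to 4 (log2 difference -0.61, SE 0.16, adjusted p = 0.108). GLUL was thus lower in all KNP animals with its brightest probe set, and KNP replicate 2 was the highest of the KNP animals; a dimmer GLUL probe set showed -0.02. Of 20 genes of the portal zone 13 were tested; SDS, which turns serine into pyruvate, rose by 4.07 (adjusted p = 0.0336; 4.08 with 0.0660 after quantile normalization), SERPINA1, a protease inhibitor, fell by 0.53 (adjusted p = 0.0479; 0.017 after quantile normalization) and 11 did not pass, with a median of -0.19, which was 0.049 after quantile normalization.

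Inflammation is known to lower hepatic P450 transcripts, and the acute phase proteins were set beside them for that reason. Of 20 listed genes 11 were tested; HP, FGB and SERPINA1 fell by 0.66, 0.60 and 0.53 (limma adjusted p = 0.0345, 0.0478 and 0.0479), 0 rose and 8 did not pass, with a median of -0.53, and 0.017 after quantile normalization, where SERPINA1 turned to 0.017 and HP and FGB showed -0.062 and -0.028. The mean was higher in KNP in 3 of the 11 and lower in 8, with a highest difference of 1.18. At an unadjusted p under 0.05 in limma, 1 was higher and 6 were lower. Without KNP replicate 2, HP was still called (adjusted p = 0.0474) while FGB and SERPINA1 were not (0.0721 for both). CRP, C-reactive protein, had 11405, 290.0, 28641 and 3749 in KNP replicates 1 to 4, against 4578, 3855, 10299 and 11124 in YS replicates 1 to 4 (log2 difference -0.61, SE 1.09, limma adjusted p = 0.832). The lowest of the 8 animals in CRP was KNP replicate 2, as in CYP2E1 and CYP2A19, while HP was 42097 in that animal and 45368 to 55815 in the other KNP animals. Without KNP replicate 2 CRP showed 0.67 (adjusted p = 0.641). The part of an acute phase state in the P450 levels was not tested.

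**Figure D5:**
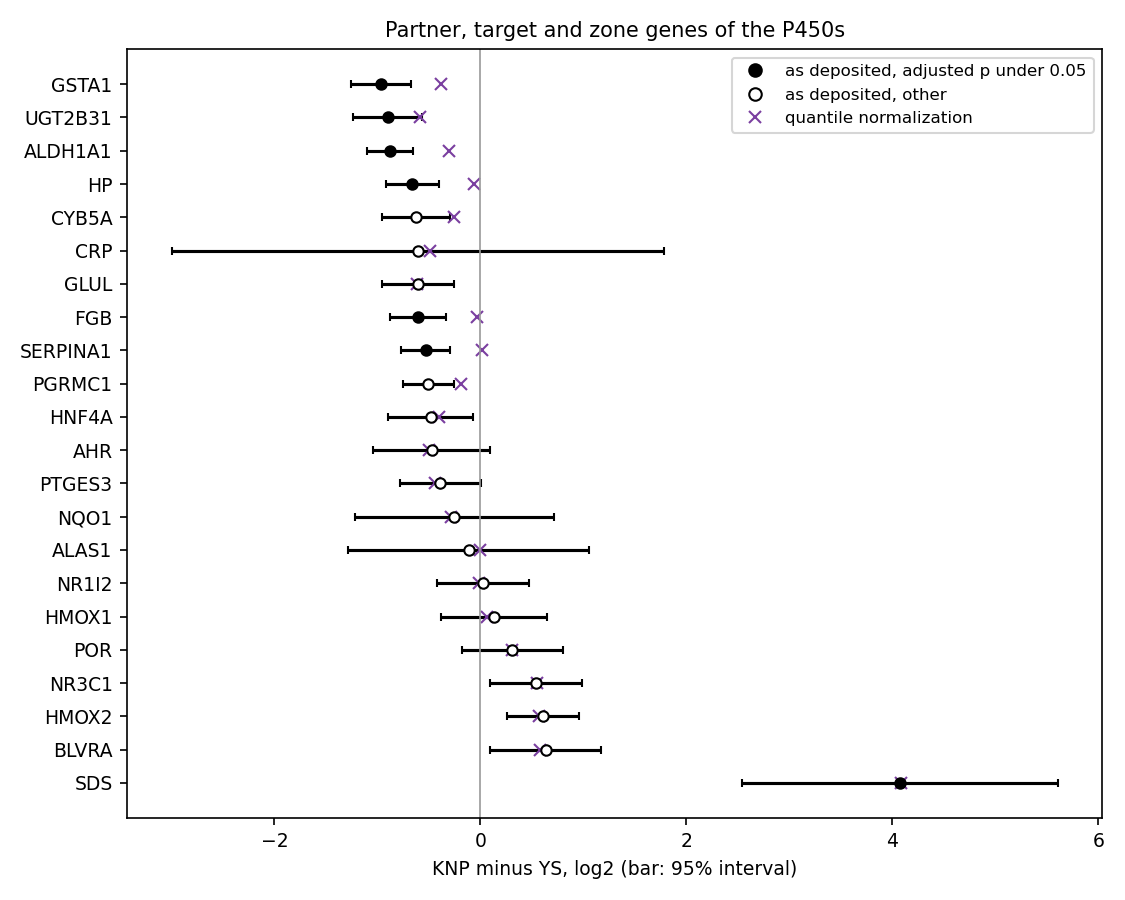
KNP minus YS difference on the log2 scale (horizontal axis) for named partner, target, regulator, zone and acute phase genes (rows), with 95% intervals; filled circles have an adjusted p under 0.05 as deposited and crosses give the value after quantile normalization. HP, FGB and SERPINA1 move to near 0 after quantile normalization, while SDS is at 4.08.

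Likeness of pattern was described by Pearson's r of the log2 values over the 8 arrays, among 5422 other genes, with no test. For CYP2E1 the leading genes were POFUT2, LRRC8A, C2 and C4BPB, with r of 0.98 to 0.99 and Spearman's rho of 0.36 to 0.86. Each of them was lowest in KNP replicate 2, and without that animal r was 0.08 to 0.63 over 7 arrays. After each breed mean was taken away the leading genes were ACAA2, a mitochondrial thiolase, POFUT2, LRRC8A and API5, with r of 0.98 to 0.99, and without KNP replicate 2 of 0.04 to 0.64. ACAA2 was at 375 in KNP replicate 2 and at 15319 to 21168 in the other KNP animals, against 9714 to 15420 in YS. After each breed mean was taken away, Spearman's rho over the 8 arrays was 0.79 in POFUT2, 0.83 in ACAA2, 0.93 in API5 and 0.95 in LRRC8A. In each of the genes named here as like CYP2E1, r was lower without KNP replicate 2.

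For CYP2A19 the leading genes over the 8 arrays were VGLL4, BTF3, ENPP2 and SLC17A1, a phosphate transporter of liver and kidney, with r of 0.96 to 0.98. SLC17A1 had 1175, 241, 429 and 1512 in KNP replicates 1 to 4, against 1311 to 1649 in YS, with the KNP animals in the same order as in CYP2A19 (log2 difference -1.15, limma adjusted p = 0.278, and -0.68 with 0.382 without KNP replicate 2). Without KNP replicates 2 and 3, the arrays farthest from the median of CYP2A19, r for these 4 genes was 0.39 to 0.58 over 6 arrays. After each breed mean was taken away F5, ORM1, ENPP2 and BTF3 led, with r of 0.96 to 0.98, and of -0.096 to 0.66 without KNP replicates 2 and 3. ORM1, an acute phase glycoprotein, had 32560.2, 13961 and 23517 in KNP replicates 1 to 3 and 33793 in KNP replicate 4, against 47490.3 to 58212 in YS (log2 difference -1.06, limma adjusted p = 0.0717, and -0.79 with 0.0434 without KNP replicate 2; after quantile normalization -0.59 with 0.329, and -0.30 with 0.388 without KNP replicate 2). Over the 8 arrays CYP2E1 came 28th in likeness to CYP2A19, with an r of 0.92 that was 0.59 without KNP replicate 2. After each breed mean was taken away CYP2E1 came 40th, with an r of 0.92 that was -0.30 without KNP replicate 2.

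CYP1A1 was most like FADS1, a desaturase of long-chain fatty acids, with an r of 0.97 and a rho of 0.93 over 8 arrays. FADS1 had 1160, 61.0, 114 and 133 in KNP replicates 1 to 4, against 1137, 3317, 964 and 956 in YS replicates 1 to 4. As in CYP1A1, KNP replicate 1 lay in the YS range, the other three KNP animals lay below it and YS replicate 2 was the highest (log2 difference -2.76, limma adjusted p = 0.108, and -3.60 with 0.0154 without KNP replicate 1). Unlike the likeness for CYP2E1, this one was 0.97 without KNP replicate 2 and 0.98 without KNP replicates 2 and 3. After each breed mean was taken away r was 0.93. KNP replicate 1 and YS replicate 2, the highest of their breeds in both genes, were not left out. How far the likeness rests on these animals was not tested. GGH, WDR18 and HDGF followed with r of 0.95, all with small differences between the breeds of -0.53 to -0.21. LOC100153094, FAH and WWP2 led after each breed mean was taken away, with r of 0.94 to 0.98; FAH, the last enzyme of tyrosine breakdown, ran from 4498 to 7070 in KNP, highest in replicate 1, and from 5106 to 6645 in YS, highest in replicate 2. Over the 8 arrays CYP2A19 and CYP2E1 came 249th and 881st in likeness to CYP1A1. They came 639th and 1431st after each breed mean was taken away.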

How the data were processed

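Liver RNA of 8 pigs was measured on the Affymetrix porcine array, 1 array per animal. The authors deposited linear intensities, 1 per probe set, already scaled per array as the values show, and GCOS 1.3 was used per the submitters' processing notes. The sources used here name no method for summarizing signals or handling background.

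The 124 control probe sets were left out. Values were taken as log2(intensity + 16); the array medians differed by 0.22, under the limit of 0.5 set for quantile normalization, and a filter on the mean over all arrays dropped the dimmest 40%, which kept 14399 of 23999 probe sets. Each probe set was fitted with limma 3.58.1 (lmFit, eBayes with an intensity trend, two-sided, breed as the only term) in R 4.3.3, with Benjamini-Hochberg adjustment over the 14399 and a threshold of 0.05. The fit was tested on simulated data. Exact permutation tests compared single values per array. A gene with several probe sets is given by the brightest. Of 23999 probe sets 10069 carry 1 symbol, by the platform annotation.

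The cytochromes, the gene lists and the tests were chosen with earlier results of these data known. Named are all members, from each list the genes past the threshold or the 2 with the smallest p, a set of partner genes always given, other P450s past the threshold or with the 4 widest KNP ranges, and the 4 genes most like each member. Alternatives were no filter or a filter at 60%, pseudocounts of 1 and 64, median centring, quantile normalization, array weights, no trend, a replicate block and each animal left out. Quantile normalization without KNP replicate 2 was added after seeing the data. Probe sequences were not used here, so signal shared between related P450s was not tested. The labels call the samples biological replicates, and an animal's number in KNP has no tie to that number in YS.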

Additional observations from a re-analysis of the deposited data

Results flagged for a closer look

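Single animals that stood far from the other three of their breed were looked for in 53 named genes, with 106 groups of 4 examined on the log2 scale by Dixon's criterion, for which chance gives about 1 in 20; 15 were found. Genes chosen for their likeness to CYP2E1, and those chosen after their values were seen, share its low or deviating animal by that choice. CYP2C36, CYP7A1 and CYP51 were named for a wide KNP range, and FADS1 for its likeness to CYP1A1. Flags in genes chosen by their values cannot be set against the chance rate. Among the flagged genes only CYP2E1 and HNF4A were named without such a choice.

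KNP replicate 2 was far from the other three KNP animals in 11 of them. It was lowest in CYP2E1 (555 against 32831 to 39858), SULT1A3 (177 against 7684 to 9978), ACAA2 (375 against 15319 to 21168), POFUT2 (33.9 against 282 to 343), LRRC8A (229 against 863 to 1028), C2 (1902 against 4762 to 4957), C4BPB (3751 against 9764 to 10003) and API5 (988 against 1283 to 1321). It was highest in CYP2C36 (24858 against 53.4 to 94.5), CBR1 (24267 against 101 to 158) and CBR2 (21871 against 41.9 to 77.6). CYP2A19 was not among these, since its other KNP animals were spread as well.

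KNP replicate 3 was lowest in CYP7A1 (82.5 against 2752 to 2987) and CYP51 (2821 against 12092 to 13693), and KNP replicate 4 in HNF4A (4599 against 7888 to 8091). YS replicate 2 was highest in FADS1 (3317 against 956 to 1137), the gene most like CYP1A1, where it was highest too.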

How the results depend on the processing

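CYP2E1, CYP2A19 and CYP1A1 kept a negative difference with no call under the 9 planned settings that keep all animals, at -1.93 to -1.50, -3.38 to -2.99 and -3.11 to -2.54. With 1 animal left out they ran from -2.46 to -0.42, -4.24 to -1.87 and -3.91 to -2.39, and CYP1A1 was called at -3.91 without KNP replicate 1. With quantile normalization and without KNP replicate 2, CYP2E1 turned to 0.071; the cause was not tested.

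The replicate numbers do not pair the animals: the deviations of same-numbered arrays correlated at -0.020, 0.012, -0.015 and 0.051. The fit with a replicate block left 6 probe sets called higher and 2 lower, and CYP2E1, CYP2A19 and CYP1A1 uncalled at the same sizes with adjusted p of 0.388, 0.213 and 0.162. The 61 probe sets called higher and 88 lower became 24 and 11 with no filter, 8 and 5 without the intensity trend, 9 and 4 after quantile normalization, and 18 and 7 when KNP replicate 2 was left out as well; median centring gave 38 lower. With 1 animal left out the counts ran from 5 to 48 higher and from 3 to 81 lower. Of 75 pathway genes tested, 1 was called higher and 6 lower; no gene was called higher without the trend, after quantile normalization (with or without KNP replicate 2) or with the block, and 0 were called lower in these fits or with no filter, against 2 with median centring. With 1 animal left out these counts ran from 0 to 1 higher and from 1 to 6 lower. ALDH1A1 was called whichever animal was left out. Calls were lost, whichever YS animal was left out, in GSTA1, UGT2B31, SDS, HP, FGB, SERPINA1 and CYP3A39, and also without KNP replicate 1 in these other than GSTA1.

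Among 49 named genes with a fit, 33 of 880 values under alternatives changed sign, none of them with an adjusted p under 0.05. SERPINA1 turned to 0.017 after quantile normalization and to 0.0075 without KNP replicate 2 on that scale, where NQO1 was 0.18, ALAS1 0.21, CRP 0.81, CYP2C36 -0.068, C2 0.029, C4BPB 0.13, ACAA2 0.73, F5 0.015, FAH 0.026, SULT1A3 0.68 and CBR1 -0.85. ALAS1 was 0.041 with array weights, and NR1I2 -0.010 after quantile normalization. With 1 animal left out, differences that changed sign ran from -1.42 to 0.50 in ACAA2, -0.71 to 0.34 in ALAS1, -0.47 to 0.0053 in C4BPB, -0.94 to 1.62 in CBR1, -1.51 to 0.67 in CRP, -0.23 to 2.60 in CYP2C36, -0.85 to 0.14 in CYP2C42, -0.22 to 0.00042 in FAH, -0.079 to 0.30 in HMOX1, -0.63 to 0.21 in NQO1, -0.084 to 0.14 in NR1I2, -1.29 to 0.61 in SULT1A3 and -0.29 to 0.032 in WWP2. Each cytochrome has 1 probe set, so a mean over probe sets could not be run. Dim signal limits CYP1A1 in KNP, and 4 arrays per breed limit every difference.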
